A study of Drosophila melanogaster with 2 samples.

Results

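The circadian clock genes per, tim, Clk, cyc, vri, Pdp1, cry, cwo and sgg were examined for binding of the nuclear receptor dsf in whole Drosophila melanogaster larvae. They were chosen by name as genes of the clock loop, with no binding value in the rule, and are 9 of 13945 protein-coding genes on the nuclear chromosome arms. This choice, and that of the other gene lists below, was made with earlier results of these data known. Chromatin immunoprecipitation and sequencing (ChIP-seq) was done on a transgenic strain, dsf-GFP, that carries dsf with a green fluorescent protein (eGFP) joined to its C-terminal end. An antibody against the tag precipitated the fusion protein from sonicated chromatin, and the DNA was sequenced. Both samples belong to 1 group, wandering larvae of the third instar, of mixed sex and unknown age, and are biological replicates 3 and 4, separate biosamples of the same transgenic line. The labels give no time of day. No control sample was analysed here, so signal that arises without the fusion protein was not tested. Whole larvae were used, so binding in a few cells and weak binding in many cells cannot be told apart.

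The fly clock is a loop in which proteins repress their own transcription. Clk and cyc encode a pair of proteins that bind E-box sequences and activate per, tim, vri, Pdp1 and cwo. The products of per and tim enter the nucleus and block that pair, vri and Pdp1 encode a repressor and an activator of Clk, and cwo encodes a repressor that binds E-boxes. The product of cry absorbs blue light and leads to the loss of the tim protein. The kinase encoded by sgg phosphorylates the tim protein, and further kinases set the speed of the loop by acting on the per protein. The receptor dsf belongs to the tailless group of orphan nuclear receptors.

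Of the 9 clock genes, 3 held a reproducible summit inside the gene or within 5 kb of it. These were vri with 3 summits, sgg with 2 and cyc with 1, so 6 of the 1731 regions in the list. A summit is the point of strongest signal in a region. Reproducible here means the list of 1731 regions that the authors kept after an irreproducible discovery rate (IDR) threshold, a procedure based on how similarly replicates rank a region. By the same rule 26.8% of all protein-coding genes held a summit, and 34.6% of the 25% longest genes, among which 7 of the 9 clock genes fall. The share of clock genes was close to that of genes in general, and no test was made because genes are not replicates. For 2 of the 9, sgg and vri, a summit lay at most 1 kb from an own transcription start site (TSS). This held for 12.2% of all protein-coding genes and 16.5% of the 25% longest. The genes sgg and vri have 11 and 3 TSS positions, and shares by number of TSS were not computed. The vri call at the TSS was lost in the 1731 strongest regions of either replicate alone, which left sgg.

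The map of summits along each gene shows where the regions fell. Of the 27 distinct TSS positions of the 9 genes, 2 had an IDR-thresholded summit within 1 kb. These were the TSS of the transcript vri-RE and that of sgg-RQ. The longer list from which the 1731 were drawn held 29999 regions, background included, and was made from both replicates. It is called the pooled list here. In it the 9 genes held 109 summits, 4.11 for every 10 kb searched, against 2.66 for all protein-coding genes. Of the 27 TSS positions, 20 had a summit within 1 kb. Of these, 11 were positions of sgg, where neighbouring positions shared summits. Of the 109, 77 lay in an intron of at least 1 transcript. For the TSS and intron counts no share over all genes was computed, so they only describe these genes. A summit within 100 bp was listed in both replicates for 38 of the 109 (34.9%), against 8991 of the 29975 nuclear pooled regions.

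**Figure D1:**
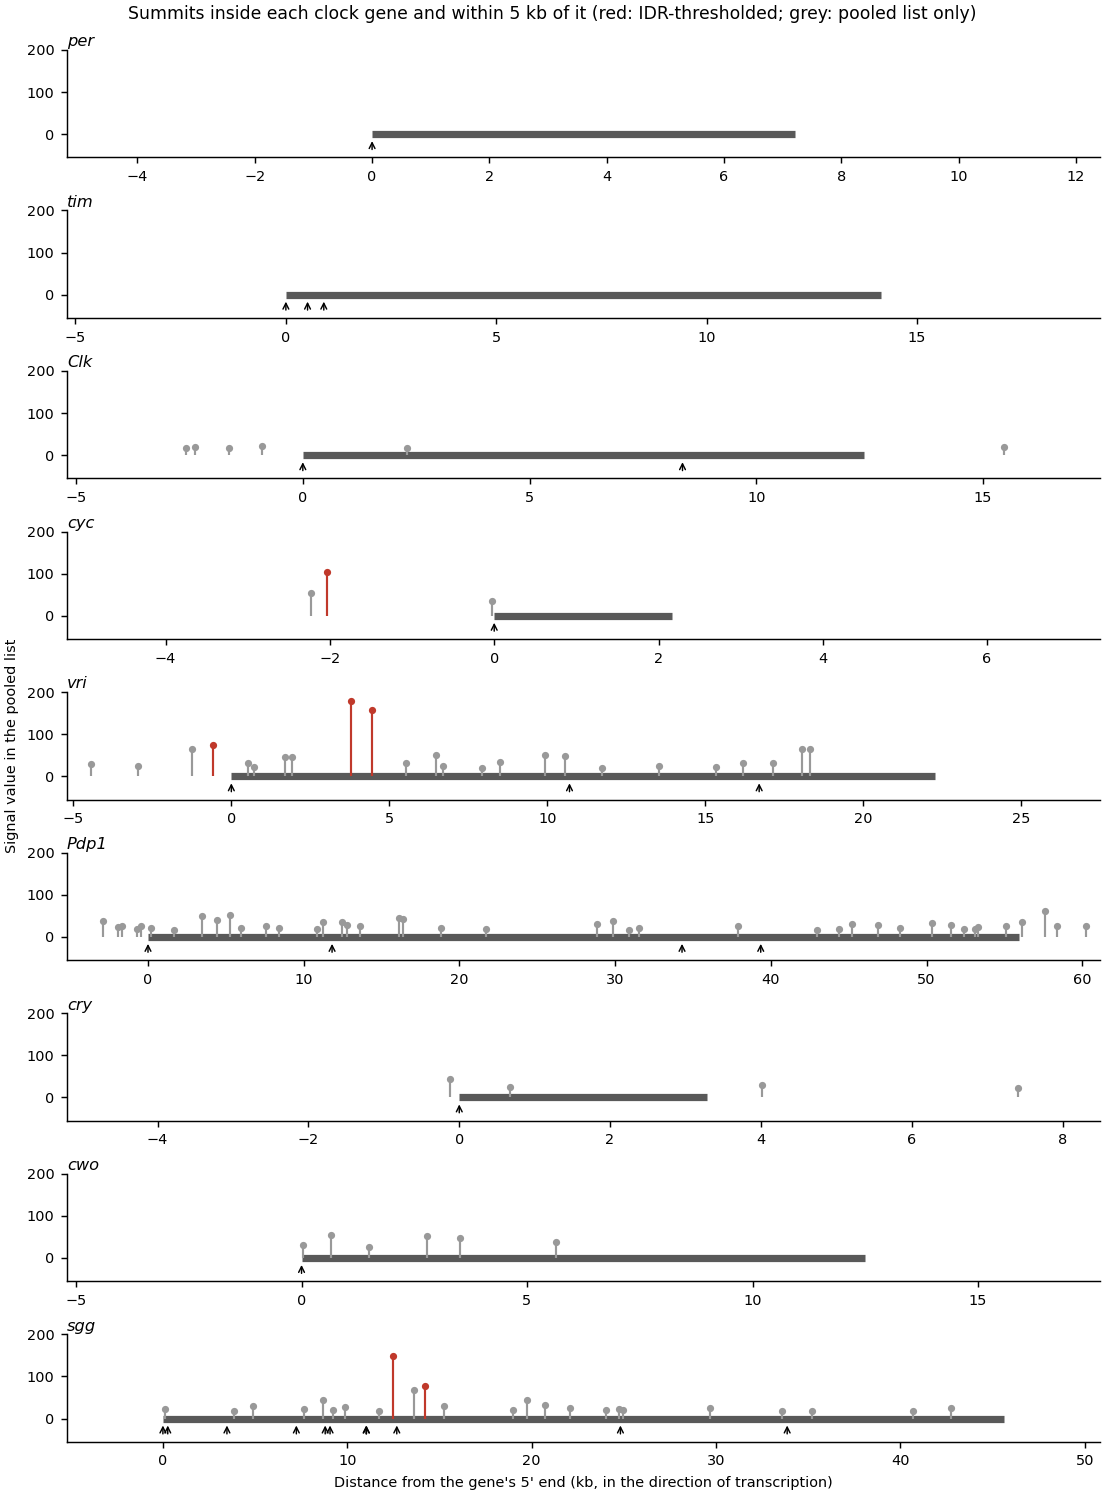
Summits of the pooled list inside each of the 9 clock genes and within 5 kb of them, at their distance from the gene's 5' end in kb along the direction of transcription (x axis) and with the authors' signal value (y axis); red marks the 6 IDR-thresholded summits, grey the other pooled summits, bars the genes and arrows the TSS positions. The red summits stand at cyc, vri and sgg, and per and tim have no summit.

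The sequences at the strongest IDR-thresholded summit of each of the 3 genes are shown. The vri region upstream of vri-RE, on which the vri call at a TSS rests, is not shown. The cyc summit lies 2030 bp outside the gene, between its neighbours Fibp and Deaf1. The second intronic region of vri was added after its values were seen. Sequence is from the RefSeq release 6 genome, the build of the dm6 coordinates, and reaches 100 bp to either side of the summit where no untranslated region is annotated. At cyc the bases on the Fibp side of the summit were left out for that reason, so the line starts at the summit. The nearest replicate 4 summit, 161 bp away, lies outside the cyc line. Capitals mark TATAAA on either strand and, at cyc, AAGTCA.
vri, strongest intronic region, chr2L:5292643-5292843, plus strand: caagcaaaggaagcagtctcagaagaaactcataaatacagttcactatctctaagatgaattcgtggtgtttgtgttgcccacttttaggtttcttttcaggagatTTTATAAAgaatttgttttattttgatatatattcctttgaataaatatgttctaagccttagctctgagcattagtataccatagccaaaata
vri, second intronic region, chr2L:5293291-5293491, plus strand: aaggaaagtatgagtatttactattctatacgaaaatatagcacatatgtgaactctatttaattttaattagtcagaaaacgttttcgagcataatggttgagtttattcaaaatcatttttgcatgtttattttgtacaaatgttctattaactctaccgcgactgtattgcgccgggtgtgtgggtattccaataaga
sgg, region upstream of sgg-RQ, chrX:2646345-2646545, plus strand: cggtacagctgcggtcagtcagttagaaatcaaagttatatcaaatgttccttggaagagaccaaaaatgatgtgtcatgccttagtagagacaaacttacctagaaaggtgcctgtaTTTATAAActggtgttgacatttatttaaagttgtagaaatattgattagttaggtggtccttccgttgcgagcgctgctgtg
cyc, region between Fibp and Deaf1, chr3L:19817968-19818068, plus strand: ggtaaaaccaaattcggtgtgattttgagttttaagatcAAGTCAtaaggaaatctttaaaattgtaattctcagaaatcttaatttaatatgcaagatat

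Named sequence words were counted within 50 bp of each summit on both strands, as a description of the letters. AAGTCA, the core word of tailless-group binding sites, occurred at 1 of the 6 summits, that of cyc, 39 bp past the summit, against 5.27% of the 1708 nuclear IDR-thresholded regions. TATAAA occurred at 3 of the 6, the strongest summits of vri and sgg and the vri summit upstream of vri-RE, against 23.0%. At the strongest summits of vri and sgg the word lay on both strands, overlapping by 4 bp. This overlap was noticed after the sequences were read, and 30 of the 1708 regions (1.76%) have it. The E-box CACGTG, the target of the Clk and cyc proteins, was at 0 of the 6 summits and at 1.11% of all regions. The words bound by the vri and Pdp1 proteins, TTATGTAA and TTACGTAA, were also at 0 of 6 and at 1.11% of all regions. TATCGA was at 0 of 6 against 10.1% of regions, and AGGTCA at 0 of 6 against 1.76%. The share of A and T in these windows ran from 48.5% at the second sgg summit to 75.2% at the second vri summit, against a median of 68.3% over the 1708 regions.

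The gene vri (FBgn0016076, 2L 5288944 to 5311223, plus strand) encodes a bZIP repressor of Clk and held the clock gene regions with the highest signal values in the pooled list. The strongest summit lay 3799 bp downstream of the TSS of vri-RE, in an intron of that transcript. This transcript is the only 1 of 5 that starts upstream of the summit. Its signal value was 179, at rank 261 of 1731. It had 91.4 in replicate 3, rank 158, and 79.1 in replicate 4, rank 563. The signal value is the authors' own score for a region, and replicates are compared by rank because their scales may differ. The second summit lay 648 bp further into the same intron, with a signal value of 158 and rank 357. It had 67.8 in replicate 3, rank 324, and 89.9 in replicate 4, rank 398. The first summit was the stronger in replicate 3 and the second in replicate 4, so the replicates did not give the same order. The next vri TSS, that of vri-RC, lay 6904 and 6256 bp downstream of these summits.

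The third vri region barely entered the list. Its summit lay 585 bp upstream of vri-RE, with a signal value of 73.6 and rank 1728 of 1731. The lowest signal value in the list was 73.5. It had 27.2 in replicate 3, rank 2127, and 32.8 in replicate 4, rank 3668, outside the strongest 1731 in both. Just outside the list lay 2 regions in the introns downstream of vri-RD, at ranks 2208 and 2221 of the pooled list. The first had 37.2 in replicate 3, rank 1129, and 23.0 in replicate 4, rank 7043. The second had no match in replicate 3 and 38.5 in replicate 4, rank 2669. A further region at rank 2222 lay upstream of vri-RE. In all, vri held 24 pooled summits, 7.43 for every 10 kb searched, against 2.66 for all protein-coding genes together.

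The kinase gene sgg (FBgn0003371, X 2633952 to 2679553, plus strand), the fly GSK3, has 19 transcripts and 11 TSS positions. Its strongest summit lay 192 bp upstream of the TSS of sgg-RQ, a start site 12685 bp inside the gene, and in introns of 14 other transcripts. Its signal value was 149.5, at rank 407 of 1731. It had 55.1 in replicate 3, rank 522, and 96.3 in replicate 4, rank 339. The sgg region was below both intronic vri regions in replicate 3 and above both in replicate 4, so the 2 genes could not be put in order. The second sgg summit lay 1716 bp downstream, 1524 bp past the same TSS, with a signal value of 76.2 and rank 1609. It had 24.5 in replicate 3, rank 2632, and 43.0 in replicate 4, rank 2108, outside the strongest 1731 in both. Between them lay a region at rank 1965 of the pooled list, 932 bp past the TSS, with 33.5 in replicate 3, rank 1383, and 38.9 in replicate 4, rank 2599. All 24 pooled summits of sgg lay in an intron of at least 1 transcript, and some of them also in a UTR of other transcripts. The gene lies 6026 bp from per on the X chromosome, and its regions were all further than 5 kb from per.

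**Figure D2:**
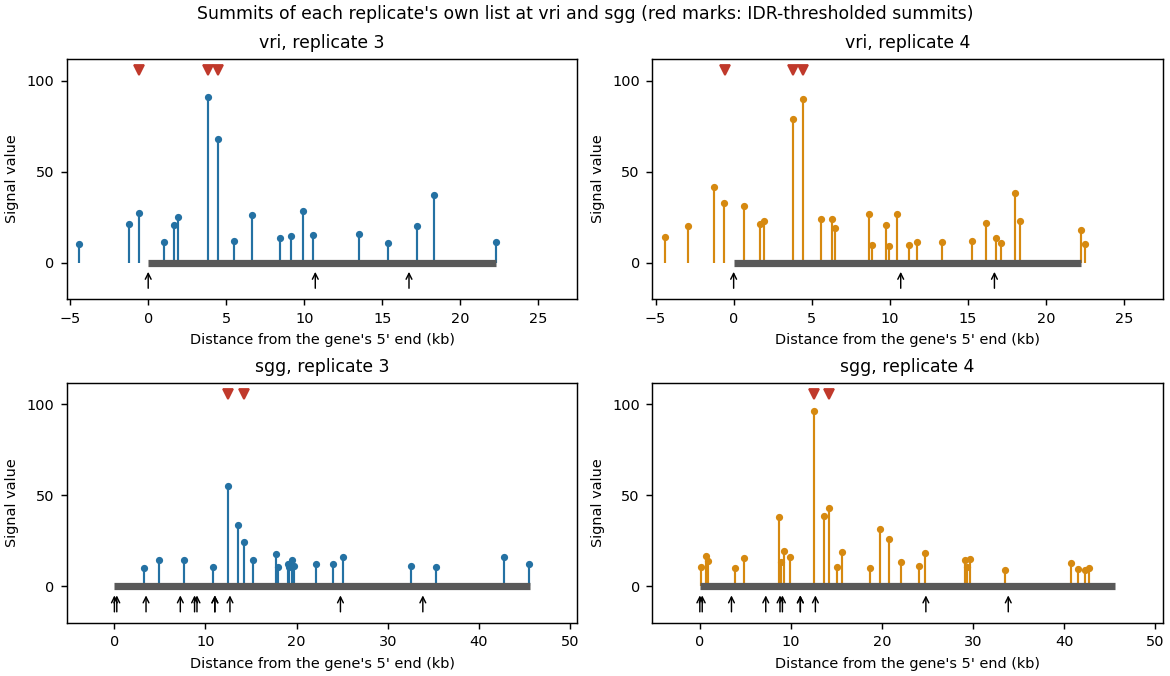
Summits in the lists of replicate 3 (left) and replicate 4 (right) at vri (above) and sgg (below), at their distance from the gene's 5' end in kb (x axis) and with the authors' signal value (y axis); red marks show the IDR-thresholded summits and arrows the TSS positions. The vri pair reaches 91.4 and 67.8 in replicate 3 and 79.1 and 89.9 in replicate 4, and the strongest sgg summit 55.1 and 96.3.

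The cyc gene (FBgn0023094, 3L 19813770 to 19815938, minus strand) encodes the partner of the Clk protein, and its call rested on a region at a different promoter. The summit lay 2030 bp upstream of cyc and 1 bp upstream of Fibp, a gene between cyc and the summit that has its TSS nearest. It had a signal value of 105 and rank 866. In replicate 3 the matching summit had 39.4 and rank 1016. In replicate 4 no summit lay within 100 bp, and the nearest, 161 bp away, had 61.5 and rank 975. That summit lay 45 bp upstream of Deaf1, a transcription factor gene that starts on the other strand and runs away from Fibp. The pooled list placed a further summit 6 bp upstream of Deaf1, at rank 3174. At the TSS of cyc itself, 30 bp upstream, the pooled list had a region with a signal value of 35.2 and rank 6888. It had no match in replicate 3 and 31.6 in replicate 4, rank 3920.

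The genes per and tim, whose products repress the pair of activators, had no region in the pooled list. For per (FBgn0003068, X 2685580 to 2692780), no summit was listed in the gene or within 5 kb in the pooled list, in replicate 3 or in replicate 4. No summit in any of the 3 lists is a feature of 9.51% of all protein-coding genes. For tim (FBgn0014396, 2L 3493986 to 3508119), replicate 3 listed 5 weak summits, the strongest with 13.7 and rank 12223, and replicate 4 listed 0. Absence from the pooled list was found for 23.4% of all protein-coding genes and for 10.7% of the 25% longest, to which both genes belong. A list of ranked regions gives no lower limit of binding, so this says only that no summit was listed.

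The remaining activator genes had no IDR-thresholded summit. Clk (FBgn0023076, 3L 7763233 to 7775603) had 6 pooled summits, the strongest 902 bp upstream of its first TSS, with a signal value of 21.8 and rank 17946. Its best summit in replicate 3 lay 178 bp downstream of that TSS, with 20.5 and rank 4158. Replicate 4 listed a single Clk summit, upstream of the gene, with 11.98 and rank 20580. None of the 6 pooled summits of Clk was matched in both replicates. Pdp1 (FBgn0016694, 3L 7811458 to 7867369), the longest of the 9 genes at 55912 bp, had 42 pooled summits, the strongest at rank 2380. That region lay 78 bp downstream of the TSS of the neighbouring gene CG32369 and had 15.8 in replicate 3, rank 8324, and 47.1 in replicate 4, rank 1736. The strongest summit inside Pdp1 lay in an intron, 5285 bp downstream of the TSS of Pdp1-RO, with a signal value of 52.9 and rank 3177. It had 30.3 in replicate 4, rank 4275, and no match within 100 bp in replicate 3, where a summit within 250 bp had 20.4 and rank 4184.

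The repressor gene cwo and the photoreceptor gene cry had their strongest pooled summits near their own TSS, below the list. In cwo (FBgn0259938, 3R 10388258 to 10400752) the strongest pooled summit lay 648 bp downstream of the TSS, in the 5' UTR, with a signal value of 54.6 and rank 2992. It had 10.5 in replicate 3, rank 23031, and 42.4 in replicate 4, rank 2177. A cwo summit 2784 bp downstream, in an intron, had a signal value of 53.2 and 42.6 in replicate 4, rank 2142. It had no match within 100 bp in replicate 3, where a summit within 250 bp had 11.8 and rank 17775. The replicates differed widely at cwo, where the best rank was 9851 in replicate 3 and 2142 in replicate 4. In cry (FBgn0025680, 3R 19212154 to 19215442) the strongest pooled summit lay 127 bp upstream of the TSS, with a signal value of 43.8 and rank 4525. It was listed in both replicates, with 21.3 and rank 3743 in replicate 3 and 21.3 and rank 8086 in replicate 4.

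The spread between replicates over the IDR-thresholded regions matched in both gives a scale for the clock gene regions among them. Of the 1708 nuclear IDR-thresholded regions, 1473 were matched in both replicates, and the log2 ratio of replicate 4 to replicate 3 signal values had a median of 0.52 and an SD of 0.59. From the 5% to the 95% quantile it ran from -0.36 to 1.504. The ratio was -0.21 at the strongest vri region, 0.41 at the second, 0.27 at the region upstream of vri-RE and 0.81 at each sgg region. All 5 IDR-thresholded clock gene regions matched in both replicates lay inside that range, and the cyc region had no match within 100 bp in replicate 4. Below the list, the ratio at the strongest pooled region was 1.58 for Pdp1 and 2.01 for cwo, above the range. For cry it was 0.002, inside the range, and that of Clk had no match in replicate 4. With 2 replicates no test on a single region was possible.

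**Figure D3:**
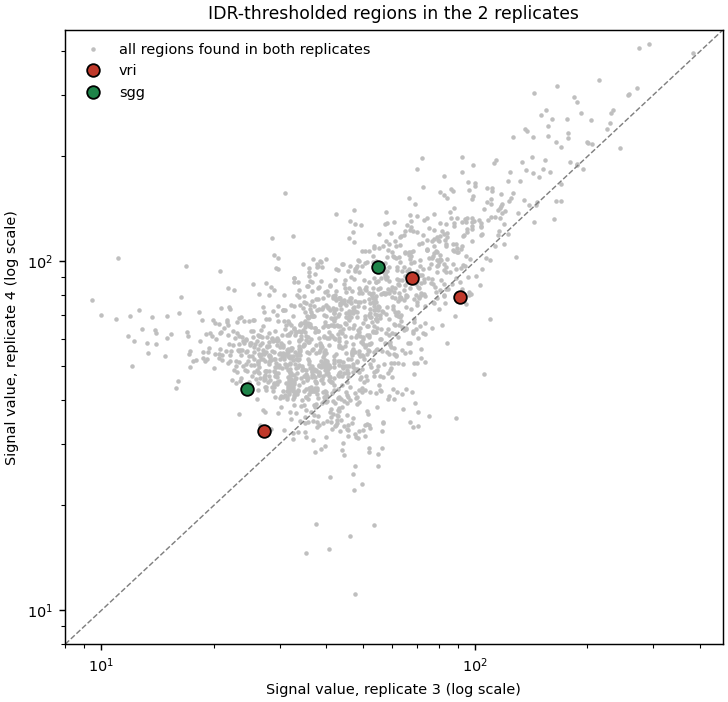
Signal value in replicate 3 (x axis) and replicate 4 (y axis), both on log scales, of the 1473 IDR-thresholded regions matched in both replicates (grey), with the 3 vri regions in red and the 2 sgg regions in green; the dashed line marks equal values. The clock gene regions lie within the cloud, and the strongest vri region, at 91.4 and 79.1, is the only 1 of the 5 below the line. The line is not the centre of the cloud, whose median log2 ratio of replicate 4 to replicate 3 is 0.52.

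Core loop genes were set beside clock kinases. Of the 7 core loop genes (per, tim, Clk, cyc, vri, Pdp1 and cwo), 2 held an IDR-thresholded summit inside the gene or within 5 kb, and of 5 clock kinases 3 did, against 26.8% of all protein-coding genes. The kinases were sgg, dco (doubletime, a casein kinase 1 that acts on the per protein), CkIIalpha and CkIIbeta, the subunits of casein kinase 2, and the kinase nmo. Similar total lengths were searched, 197 kb for the core loop and 193 kb for the kinases. The length per gene was not equalised, as nmo and sgg took 85.1 and 55.6 kb of the kinase total. All of the kinases, and the core loop genes except cyc, fall in the class of longest genes. In that class 34.6% of genes held an IDR-thresholded summit inside the gene or within 5 kb, more than the 26.8% of all genes. The core loop had 2.03 summits per 100 kb and the kinases 2.59, against 2.20 for all protein-coding genes. In the pooled list the core loop had 4.12 summits per 10 kb and the kinases 5.64, against 2.66. The 39 other pathway genes described below had 4.19, so a density above that of all genes was not particular to these lists. These lists hold few genes, and the difference between them was not tested. Counting a summit only for the gene with the nearest TSS left 1 core loop gene, vri, and 2 kinases, sgg and CkIIbeta.

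**Figure D4:**
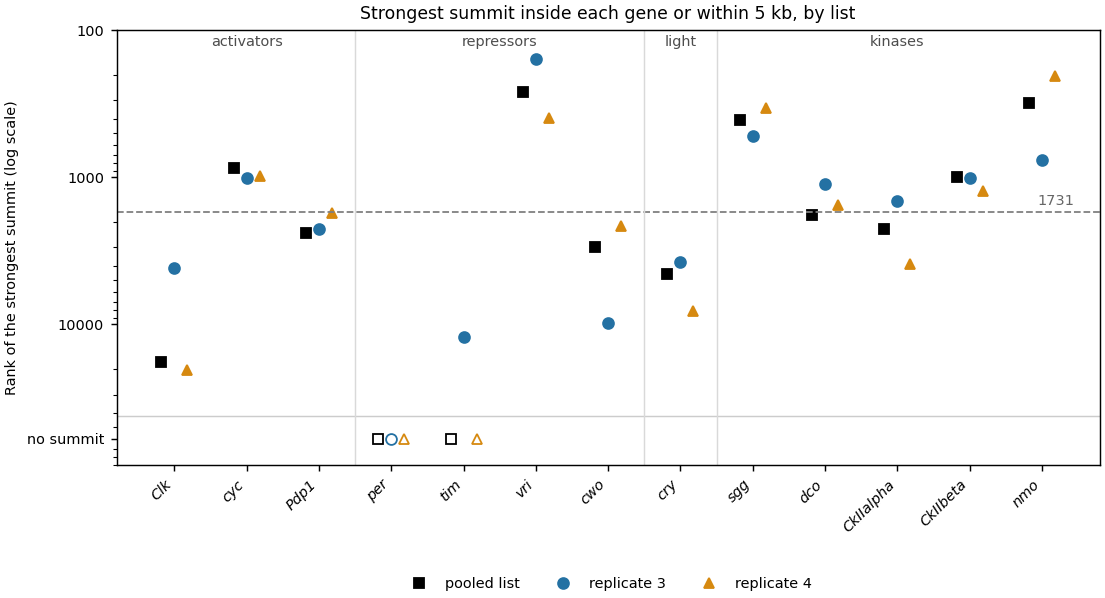
Rank of the strongest summit inside each gene or within 5 kb (y axis, log scale, strongest at the top) for the 9 clock genes and 4 further clock kinases (x axis), in the pooled list (black squares), replicate 3 (blue circles) and replicate 4 (orange triangles); the dashed line marks rank 1731 and open symbols mean that no summit was listed. All 3 symbols lie above the line for cyc, vri, sgg, CkIIbeta and nmo, and per has no summit in any list.

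Among the kinases that are not on the list of 9, CkIIbeta had a summit 8 bp downstream of a TSS of its own. The region (X 11792339 to 11792742) had a signal value of 97.2, 39.4 in replicate 3, rank 1017, and 54.9 in replicate 4, rank 1241. The stronger nmo region (3L 7975988 to 7976391, signal value 167) lay 2856 bp upstream of nmo and 36 bp upstream of HP4, a chromatin protein gene. It had 46.0 in replicate 3, rank 768, and 117 in replicate 4, rank 206. A second nmo region lay 16 bp upstream of CG8209, so the nmo calls, like that of cyc, rested on promoters of neighbouring genes. The gene dco was just outside the list, with an intronic region at rank 1817. Its best region in replicate 3 was another, 338 bp upstream of dco-RA, with 37.5 and rank 1114, while the intronic region led in replicate 4 with 49.8 and rank 1536. CkIIalpha ranked 2241 through a region 31 bp downstream of the TSS of the ribosomal protein gene RpL10.

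In the strongest 1731 regions of each replicate alone, the core loop stayed at 2 of 7 genes in replicate 3 and in replicate 4. The kinases had 5 of 5 genes with a summit in replicate 3 and 4 of 5 in replicate 4. In replicate 3 the calls of nmo and CkIIalpha rested on summits 30 bp upstream of HP4 and 10 bp upstream of RpL10. The strongest nmo summit of replicate 4 lay 36 bp upstream of HP4. Among all protein-coding genes the shares were 25.5% in replicate 3 and 27.8% in replicate 4. The 3 clock genes with a summit were cyc, vri and sgg in both.

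Other genes of the clock pathway were taken from a list of 39 that covers phosphatases, protein stability, RNA and translation, transcription, and input and output. Of these, 15 held an IDR-thresholded summit inside the gene or within 5 kb, and 7 within 1 kb of a TSS of their own, against 26.8% and 12.2% of all protein-coding genes. Their median length was 11050 bp, against 2166 bp for all protein-coding genes. The 39 genes were listed with earlier results of these data known. Transcription and chromatin genes had 6 of 8 members with a summit, phosphatase genes 3 of 4, protein stability genes 2 of 6, input and output genes 4 of 16, and RNA and translation genes 0 of 5.

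The 7 genes with a summit near their own TSS were phosphatase, chromatin and receptor genes, and a ubiquitin ligase gene. The chromatin remodelling ATPase gene brm led, with a signal value of 199.9, 79.8 in replicate 3 and 116 in replicate 4, 91 bp upstream. The nuclear receptor gene Eip75B had 123 at a summit 72 bp downstream of a TSS, and tws, a regulatory subunit gene of protein phosphatase 2A, had 111 at 57 bp upstream. The ubiquitin ligase gene ctrip, known to lower the level of the Clk protein, had 104 at 77 bp upstream. The coactivator gene nej had 95.2 at 739 bp upstream, with 40.6 in replicate 3, rank 960, and 15.0 in replicate 4, rank 14610. A stronger summit of replicate 4, past the matching distance of 100 bp but within 250 bp, had 60.5 and rank 1008. The phosphatase genes mts and wdb had 87.6 and 84.1, and the mts summit lay 19 bp downstream of the TSS of the neighbouring gene Rack1.

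**Figure D5:**
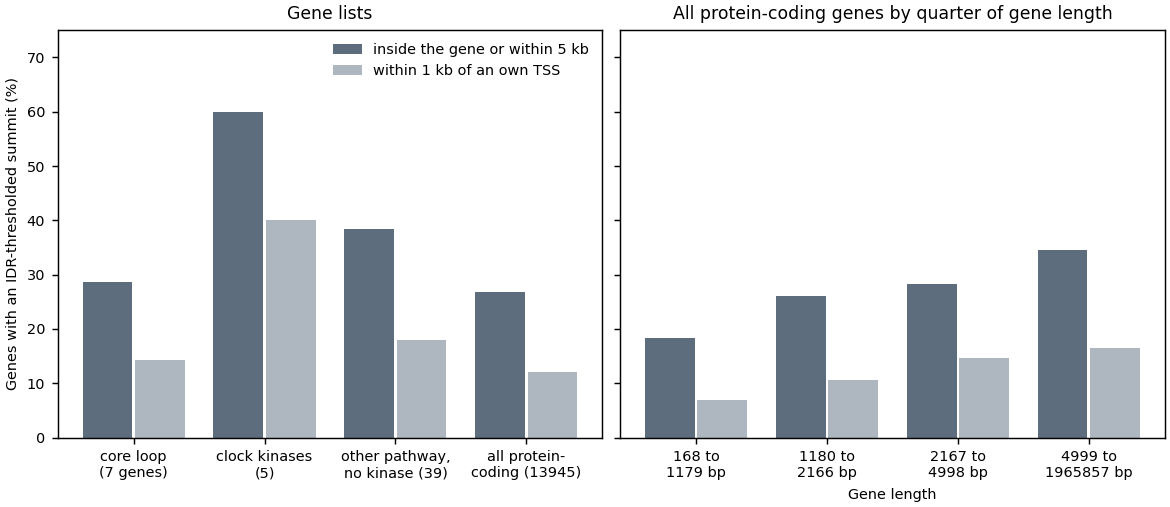
Share of genes with an IDR-thresholded summit inside the gene or within 5 kb (dark bars) and within 1 kb of an own TSS (light bars), in percent, for the core loop, the clock kinases, the other pathway genes and all protein-coding genes (left), and for all protein-coding genes in 4 classes of gene length (right). Among all genes the share within 5 kb is 18.3% in the class of shortest genes and 34.6% in that of the longest.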

How the data were processed

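The deposited files hold regions called by the authors on dm6 and dm3, per the deposited file descriptions. The 4 dm6 files were used. Each gives a region, its summit, a signal value as the authors deposited it, on a scale no source used here states, and a −log10 q-value deposited by the authors, which was not used for any call. The replicate lists derive from the alignments of a replicate and a further file, and the pooled list from both replicates and that file, per the deposited file descriptions. No source used here names the aligner, peak caller or filters. Depth is unknown, since no read counts are in the files. The IDR-thresholded list held exactly the 1731 strongest of 29999 pooled regions, 23 of them mitochondrial.

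Genes came from Ensembl release 115 and sequence from RefSeq release 6, whose 6 chromosome arms no region exceeded. Regions were ranked by signal value, mitochondrial ones included. A summit counted for every gene that held it or lay within 5 kb, and summits of different lists matched within 100 bp. Assignment was checked on simulated summits. Python 3.11.15, pandas 2.3.3 and numpy 2.4.6 were used.

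The genes and lists were chosen with earlier results of these data known, so no test was made on them. The report names all 9 genes, the 4 further kinases, the genes with a TSS nearest to their summits, and those other pathway genes with a summit within 1 kb of an own TSS. Regions of norpA, Eip75B, kay and jet named in the closing observations were chosen after their values were seen. Lsm12 and unf were matched as Lsm12a and Hr51. Alternatives varied the list, the windows, the matching and the replicate.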

Additional observations from a re-analysis of the deposited data

How the results depend on the processing

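The count of 3 clock genes with a summit within 5 kb was 2 in the strongest 25% of the IDR-thresholded list, with a window of 2 kb, inside the gene only and with the nearest TSS only, and 6 in the strongest 5000 pooled regions. It was 3 where any overlap of the region counted. Over all 7 counts, 29 of 46 alternatives stayed within 1.5 times. The 29 include the alternatives for the matches given below, whose outcome was fixed in advance. Ranking nuclear regions only could not change the 12 matches, and the 14 possible are within 1.5 times of 12. In the strongest 25% of the IDR-thresholded list there were 3 summits at clock genes, 1 clock gene with a summit at a TSS, 1 core loop gene and 1 of the other pathway genes at a TSS, a count that includes the 4 further kinases and was 8 in the full list. In the strongest 5000 pooled regions there were 26 summits, 4 clock genes with a summit at a TSS, 4 core loop genes, 5 kinases and 20 other pathway genes at a TSS. The share of all protein-coding genes was not computed for the strongest 25% or the strongest 5000 regions. Counts at these cuts therefore have no background beside them. The count of core loop genes was 1 with a window of 2 kb around the gene, 1 inside the gene only and 1 with the nearest protein-coding TSS only, where cyc dropped out. Clock genes with a summit at a TSS were 1 within 500 bp. In the lists of single replicates, clock genes with a summit within 5 kb stayed at 3, summits ranged from 4 to 6, clock genes at a TSS were 1 in each, core loop genes 2 in each, kinases 4 to 5, and other pathway genes at a TSS 7 to 8. The 6 summits of replicate 3 were not the same regions as in the IDR-thresholded list. The region upstream of vri-RE and the second sgg region fell out, and other vri and sgg summits at ranks 1129 and 1383 came in. Of the 14 matches possible for the strongest region of 7 clock genes in the replicates, 12 were found within 100 bp and 13 within 250 bp, the added match being that of cyc in replicate 4. No paired analysis was possible because the study has a single group. Unknown depth and the lack of a control sample here limit what an unlisted summit can say.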

Other observations

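Several other pathway genes had regions away from their own TSS with higher signal values than any clock gene region, and 4 are named here after their values were seen. The phospholipase C gene norpA, which acts in phototransduction, had an intronic region (X 4324865 to 4325116) with a signal value of 289.97, 146 in replicate 3, rank 56, and 148 in replicate 4, rank 109. An intronic region of Eip75B (3L 18011768 to 18012043) had 381, with ranks 41 and 54 in replicates 3 and 4. A region 2663 bp upstream of kay, which encodes the fly Fos protein, had 198, with ranks 178 and 249. The region within 5 kb of jet, a gene needed for the light response of the tim protein, lay 86 bp upstream of the mitochondrial ribosomal protein gene mRpL24 and had 218. No test was made on these regions.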
